A study of Mus musculus with 4 samples.

Results

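The extracellular matrix is the meshwork of secreted proteins and glycans around cells. A set of 50 of its genes, coding for glycoproteins, laminins and proteoglycans, was described in forelimbs of Shh null and wild-type mouse embryos. The list was drawn up by gene function, with earlier results of these data known. Of its 50 genes 47 were kept because they had a value of at least 1 in at least 2 of the 4 libraries, as did 13224 of the 17712 genes in the deposited table. The other 3 were near the floor. Fmod had 23 and 24 reads in Shh null and 17 and 15 in wild type. Mfap5 had 10 and 9 in Shh null and 4 and 4 in wild type, and Matn4 had 4 and 1 in Shh null and 5 and 0 in wild type. Each of the 47 reached the threshold in at least 1 library of each genotype. Nearest to the threshold among those kept was Ecm1, at 1.16 and 0.961 CPM in Shh null and 0.983 and 1.87 CPM in wild type. Nearest among the others was Fmod, at 0.954 and 1.10 CPM in Shh null and 0.597 and 0.826 CPM in wild type.

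RNA sequencing libraries were compared between Shh null embryos (2 libraries) and their wild-type littermates (2 libraries), all labelled Swiss Webster, an outbred stock, with 33 to 35 somites. The age label gives E10.25 and the source label E10.5. Shh encodes Sonic hedgehog, the signal made by the zone of polarizing activity of the limb bud. The labels describe neither the allele nor how many embryos went into a library. The design text calls the replicates technical, so a p-value here measures no more than how far these 4 libraries spread. Values are CPM, reads relative to a library size scaled by TMM for composition.

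The matrix does structural and signalling work in the limb bud. A laminin-based basement membrane lies under the ectoderm, and hyaluronan-rich and fibronectin-rich matrix fills the space between mesenchymal cells. Fibrillin microfibrils hold latent growth factors of the TGF-beta and BMP families, and proteoglycans on the cell surface bind hedgehog, WNT and FGF ligands.

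Depth was 18456502 to 29620468 reads assigned to genes per library, and a gene with no read could lie as high as 3 reads, or 0.105 to 0.165 CPM. Shh itself had 3.15 and 2.42 CPM in Shh null and 11.4 and 7.88 CPM in wild type (adjusted p = 0.00615, and 0.0693 and 0.0767 without Shh null 1 and Shh null 2). Markers of limb mesenchyme, surface ectoderm and endothelium were read in every library. Wild type 1 stood apart in erythroid genes: the 7 erythroid markers in the table summed to 3736 and 6343 CPM in Shh null, against 11005 and 2946 CPM in wild type. All 5 sex-linked genes read were called, with Xist at 522 and 468 CPM in Shh null and 225 and 152 CPM in wild type, and Ddx3y, on the Y chromosome, at 39.1 and 42.3 CPM in Shh null and 119 and 106 CPM in wild type. The Y-linked Eif2s3y, Uty and Kdm5d were also lower in Shh null. Levels of sex-linked genes thus differed along with genotype in these libraries. For every difference below, a part of sex was not tested and cannot be told apart from that of genotype. The Xist call ended without Shh null 1 (adjusted p = 0.0819).

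Of the 47 tested members 4 rose (Sparcl1, Thbs2, Tgfbi and Lamb2), 2 fell (Nid1 and Has2) and 41 were not called by limma at an adjusted p under 0.05. Over all 13224 tested genes 2.48% were called, 1.24% higher and 1.24% lower, against 12.8% of the members. Besides these calls the fitted values leaned upward: the log2 fold change was above 0 in 32 members and below 0 in 15, with a median of 0.23, beside −0.0005 over all tested genes. That median was 0.12 without Shh null 1, 0.22 without Shh null 2, 0.13 without wild type 1 and 0.26 without wild type 2. At an unadjusted p under 0.05 limma had 23 members, or 48.9%, and 18.5% of all tested genes. The 2 libraries of each genotype did not overlap in 32 members, 24 higher and 8 lower in Shh null. Over all tested genes this held for 50.2%, with 25.1% in the higher and 25.0% in the lower direction. All fold changes on the log2 scale are of log2(CPM + 1), which understates those of low genes, and the folds given are ratios of mean CPM. In bulk tissue, fewer cells of a type and less RNA per cell cannot be told apart.

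Libraries of 1 genotype were not alike for these genes. Wild type 1 lay below wild type 2 in 36 of the 47 members (76.6%, against 48.3% of all tested genes), and Shh null 1 lay above Shh null 2 in 34 (72.3%, against 50.7%). The number of members called in either direction, with the share of all tested genes called in the same fit, was 2 (0.423%) in the fit that left out Shh null 1 and 2 (0.749%) in the one that left out Shh null 2. It was 9 (3.47%) without wild type 1 and 17 (6.06%) without wild type 2. With all 4 libraries it was 7 (2.49%) by edgeR, 13 (3.98%) by DESeq2, 6 (2.41%) with a pseudocount of 0.25, and 4 (0.96%) with no filter on low values. It was 6 (1.82%) with quantile normalization, 7 (2.56%) with median-ratio scaling and 7 (2.99%) with a replicate block. A fit without 1 library takes the lone library of that genotype to vary like the other pair.

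**Figure D1:**
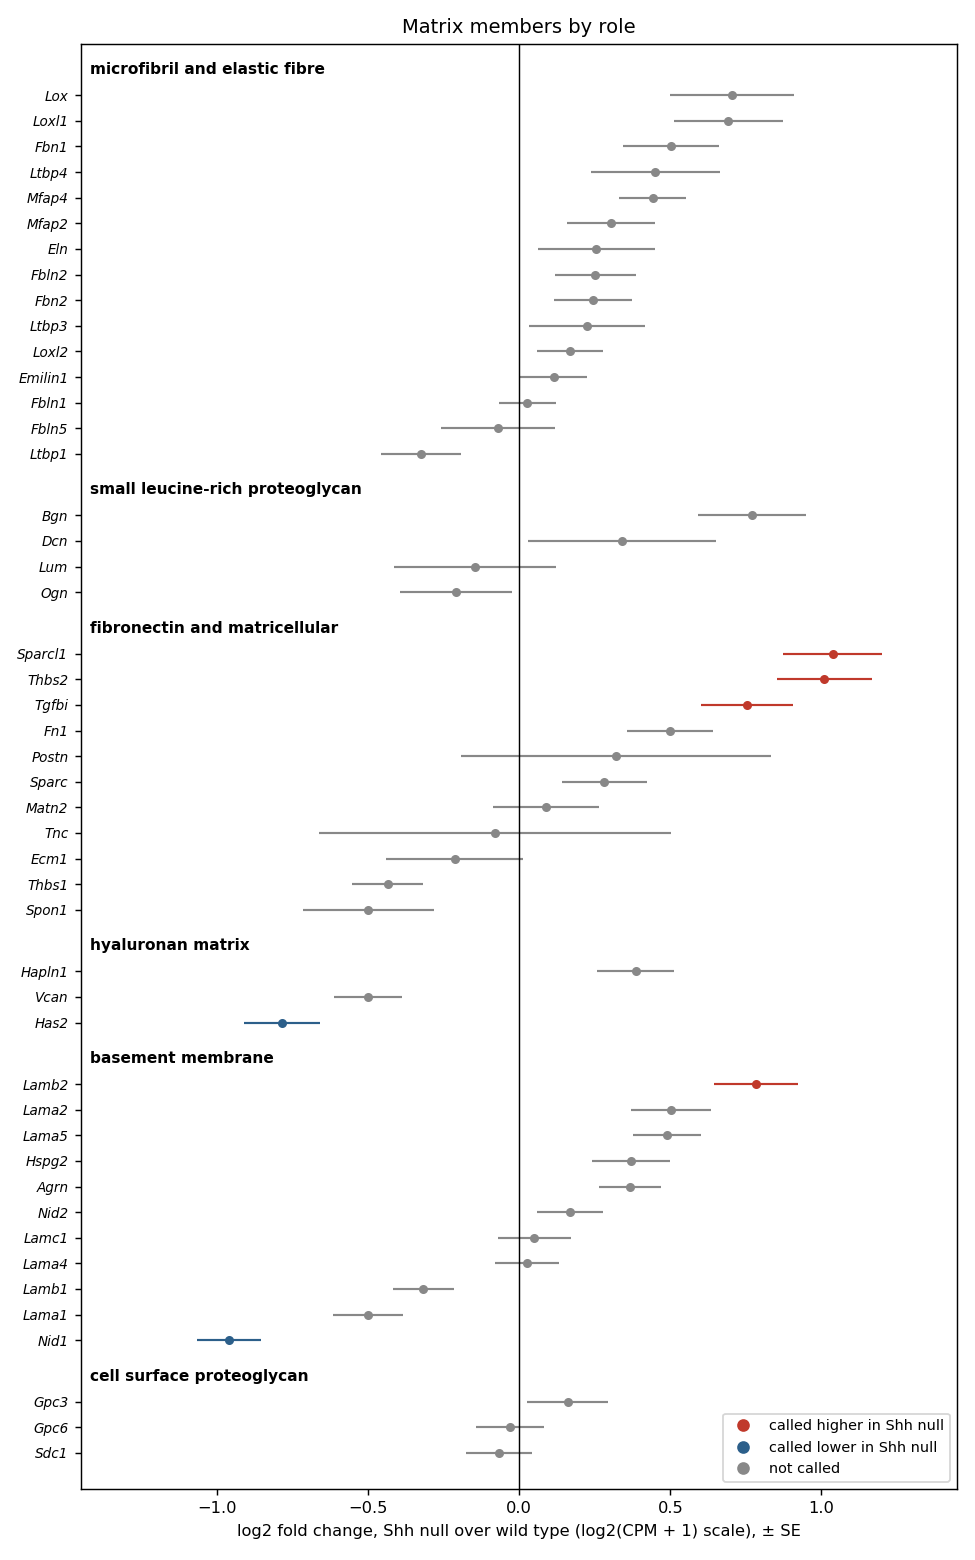
Fitted log2 fold change of the 47 tested members, Shh null over wild type, on the log2(CPM + 1) scale, with bars of 1 SE, grouped by role. Red points were called higher (Sparcl1, Thbs2, Tgfbi and Lamb2), blue points lower (Nid1 and Has2) and grey points were not called.

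Of fibronectin, the matricellular proteins, which sit in the matrix and modulate cell adhesion, and other glycoproteins grouped with them, 3 of 11 tested members rose, 0 fell and 8 were not called (edgeR and DESeq2 also called 0 lower, and in limma 2, Thbs1 and Spon1, were lower with an unadjusted p under 0.05). That was 27.3% called, beside 2.48% of all tested genes. Thbs2, thrombospondin 2 (mm10 chromosome 17, 14665500 to 14694235, minus strand), had 13.7 and 13.1 CPM in Shh null, against 5.62 and 6.72 CPM in wild type. The wild-type libraries lay well below both Shh null libraries. Its means of 13.4 ± 0.426 CPM in Shh null and 6.17 ± 0.782 CPM in wild type (SD, n = 2 each) differed 2.17-fold (log2 fold change 1.01 ± 0.16 SE, adjusted p = 0.0118). Sparcl1, or hevin, a counter-adhesive relative of SPARC (chromosome 5, 104079111 to 104113733, minus strand), had 37.0 and 40.9 CPM in Shh null and 15.5 and 22.0 CPM in wild type, 2.08-fold higher (log2 fold change 1.04 ± 0.16 SE, adjusted p = 0.0125). Tgfbi, a TGF-beta-induced adhesion protein that binds integrins (chromosome 13, 56609523 to 56639562, plus strand), had 66.1 and 60.6 CPM in Shh null and 31.3 and 44.0 CPM in wild type, 1.68-fold higher (log2 fold change 0.75 ± 0.15 SE, adjusted p = 0.0333). In each of these genes wild type 1 was the lowest library. Sparc, from the family of Sparcl1, was not called and was at 100.3 and 103 CPM in Shh null and 71.1 and 98.0 CPM in wild type (adjusted p = 0.319). Its log2 fold change was 0.28 with all libraries, 0.05 without wild type 1 and 0.51 without wild type 2. Thbs1, thrombospondin 1, was at 70.0 and 60.5 CPM in Shh null and 81.8 and 95.5 CPM in wild type (log2 fold change −0.44, adjusted p = 0.091). Thbs1 and Thbs2 thus had fitted changes of opposite sign, and neither pair of libraries overlapped. Fn1, fibronectin, a scaffold on which other matrix proteins assemble, had 307 and 243 CPM in Shh null and 172 and 217 CPM in wild type (log2 fold change 0.50, adjusted p = 0.102). The log2 fold change of Fn1 was 0.33 without wild type 1 and 0.66 without wild type 2. Spon1, Ecm1 and Matn2 stayed under 5 CPM and were not called.

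The calls of the genes that rose ended when either Shh null library was left out. Such a fit takes its spread from the wild-type pair alone, and a fit without a wild-type library takes it from the Shh null pair alone. Without Shh null 1 the adjusted p of Sparcl1, Thbs2, Tgfbi and Lamb2 was 0.142, 0.171, 0.338 and 0.251, and without Shh null 2 it was 0.106, 0.081, 0.123 and 0.0657. Their log2 fold changes in these fits lay between 0.65 and 1.11. The 6 calls, higher and lower, held without wild type 1 and without wild type 2.

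**Figure D2:**
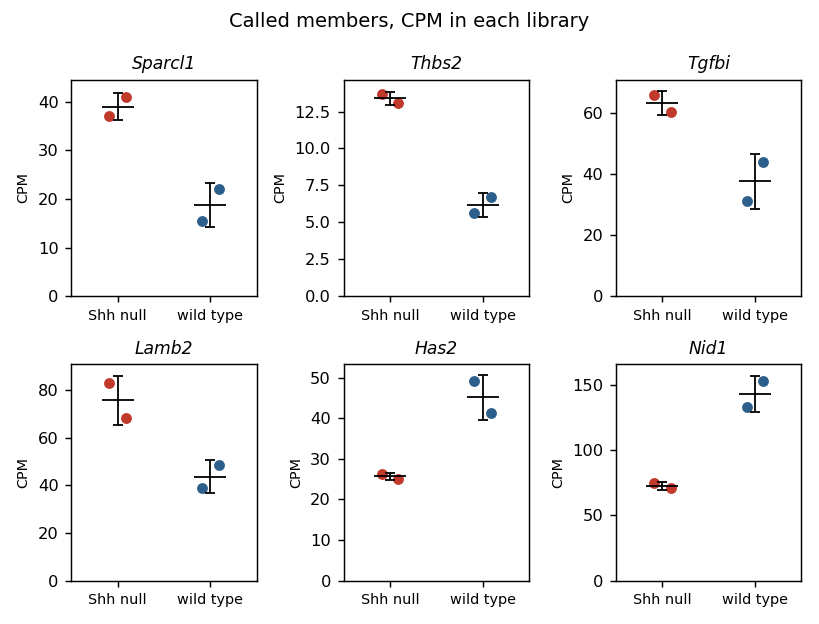
CPM of the 6 called members in each library (points), with the mean and SD of each genotype (n = 2, black); every axis starts at 0. Sparcl1, Thbs2, Tgfbi and Lamb2 lie higher in both Shh null libraries than in either wild-type library, and Has2 and Nid1 lower.

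Of the 3 hyaluronan matrix members 1 fell, 0 rose by limma, edgeR or DESeq2 (1, Hapln1, was higher with an unadjusted p under 0.05 in limma), and 2 were not called. With 3 genes that is 33.3% called, beside 2.48% of all tested genes. Has2, the synthase that spins most hyaluronan in the early embryo (chromosome 15, 56665627 to 56694539, minus strand), fell to 26.2 and 25.1 CPM in Shh null, against 49.0 and 41.2 CPM in wild type. The means of 25.7 ± 0.775 CPM in Shh null and 45.1 ± 5.53 CPM in wild type (SD, n = 2 each) differed 1.76-fold (log2 fold change −0.79 ± 0.12 SE, adjusted p = 0.0126; 0.133 without Shh null 1 and 0.0922 without Shh null 2). The other synthases were lower in level and were not called: Has3 had 7.55 and 9.97 CPM in Shh null and 11.0 and 8.15 CPM in wild type, and Has1 had 1.53 and 2.06 CPM in Shh null and 1.47 and 1.10 CPM in wild type. Of the summed level of the 3 synthases per kb of exon, Has2 made up 80.2% and 74.6% in Shh null, against 84.9% and 86.5% in wild type. Exons of Has2 share 4.3% of their bases with Has2os on the opposite strand, and the sources used here do not say whether reads were counted by strand.

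Vcan, versican, the large proteoglycan that binds hyaluronan, had 579 and 504 CPM in Shh null and 796 and 734 CPM in wild type, a 1.41-fold lower mean that fell just short of a call (log2 fold change −0.50 ± 0.11 SE, adjusted p = 0.0501). It was called lower by DESeq2 (adjusted p = 0.00148) and by limma with median-ratio scaling (0.0472). It was not called by edgeR (0.0537), or by limma with a pseudocount of 0.25 (0.0508), quantile normalization (0.148), no filter (0.109) or a replicate block (0.0678). Its log2 fold change was −0.60 without Shh null 1, −0.40 without Shh null 2, −0.44 without wild type 1 and −0.56 without wild type 2. Hapln1, the link protein that locks such proteoglycans onto hyaluronan, was at 49.3 and 62.0 CPM in Shh null and 41.3 and 42.9 CPM in wild type (log2 fold change 0.39, adjusted p = 0.151). Both genes lie on chromosome 13, 43.7 kb apart, with fitted changes of opposite sign. Of other genes that bind or break down hyaluronan, Cd44, Hyal2 and Tmem2 were looked at after their values were seen, and were not called. In each of them both Shh null libraries lay below both wild-type libraries, as in 25.0% of all tested genes. Cd44, a receptor, was at 7.30 and 9.56 CPM in Shh null and 10.6 and 10.0 CPM in wild type (adjusted p = 0.422). The hyaluronidase Hyal2 was at 75.5 and 70.2 CPM in Shh null and 90.8 and 76.5 CPM in wild type (adjusted p = 0.397), and Tmem2 at 235 and 208 CPM in Shh null and 242 and 251 CPM in wild type (adjusted p = 0.449).

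**Figure D3:**
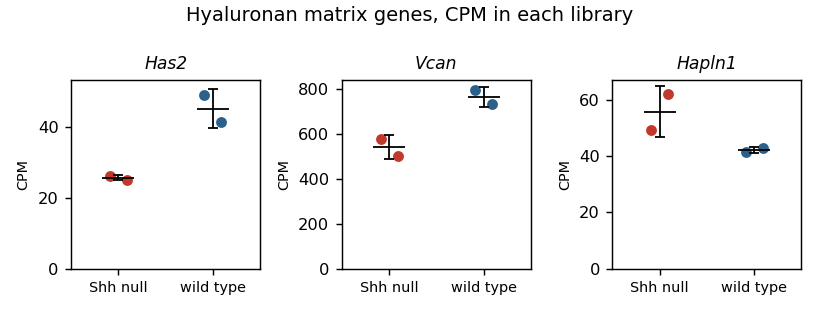
CPM of Has2, Vcan and Hapln1 in each library (points), with the mean and SD of each genotype (n = 2, black); every axis starts at 0. Has2 and Vcan lie lower, and Hapln1 higher, in both Shh null libraries, and of these only Has2 was called.

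In the basement membrane, 1 of 11 tested genes rose (Lamb2), 1 fell (Nid1) and 9 were not called. The called share was 18.2%, beside 2.48% of all tested genes. Nid1, nidogen 1, which links laminin to collagen IV (chromosome 13, 13437551 to 13512269, plus strand), fell to 74.9 and 70.7 CPM in Shh null, against 133 and 153 CPM in wild type. Means of 72.8 ± 2.96 CPM in Shh null and 143 ± 13.8 CPM in wild type (SD, n = 2 each) differed 1.96-fold (log2 fold change −0.96 ± 0.11 SE, adjusted p = 0.00173). Nid1 was the 1 member called under all of the alternatives tried, with an adjusted p of 0.0373 without Shh null 1 and 0.036 without Shh null 2. Its paralog Nid2 was at 43.5 and 46.2 CPM in Shh null and 38.7 and 41.0 CPM in wild type (adjusted p = 0.45). Of the summed level of both nidogens per kb of exon, Nid1 made up 56.2% and 53.3% in Shh null, against 71.9% and 73.5% in wild type. Exons of Nid1 share 2.06% of their bases with Gm48682 on the opposite strand.

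Laminins are trimers of an alpha, a beta and a gamma chain, and of 7 tested chains 1 rose and 6 were not called. The called share of these chains was 14.3%, beside 2.48% of all tested genes. Lamb2, the beta 2 chain (chromosome 9, 108479736 to 108490530, plus strand), rose to 82.9 and 68.5 CPM in Shh null, against 38.7 and 48.5 CPM in wild type (1.73-fold; log2 fold change 0.78 ± 0.14 SE, adjusted p = 0.0192). Lamb1, the beta 1 chain, was at 197 and 194 CPM in Shh null and 229.9 and 259 CPM in wild type (log2 fold change −0.32, adjusted p = 0.136). Of the summed beta 1 and beta 2 level in CPM per kb of exon, Lamb2 took 40.7% and 36.5% in Shh null, against 21.6% and 23.4% in wild type. The libraries did not overlap in this share. Like the shares of Has2 and Nid1 above, it was chosen after the values were seen and was not tested. With 2 libraries per genotype, the smallest two-sided p of an exact permutation test is 0.333.

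Fitted changes of the alpha chains had both signs, without a call by limma. Lama1, a chain of the earliest embryonic basement membranes, had 34.6 and 34.3 CPM in Shh null and 52.9 and 45.6 CPM in wild type (log2 fold change −0.50, adjusted p = 0.0591). Lama5, the chain of ectodermal basement membranes, had 53.6 and 48.7 CPM in Shh null and 35.2 and 37.1 CPM in wild type (log2 fold change 0.49, adjusted p = 0.0536). Lama2, the alpha chain of muscle basement membrane, had 69.5 and 55.9 CPM in Shh null and 40.5 and 47.2 CPM in wild type (log2 fold change 0.50, adjusted p = 0.0854). DESeq2 called all of these chains in the same directions (adjusted p = 0.0211 for Lama1, 0.0217 for Lama5 and 0.0338 for Lama2). In edgeR they were not called (adjusted p = 0.0549, 0.0513 and 0.0828). The log2 fold changes of Lama1, Lama5 and Lama2 were −0.39, 0.45 and 0.39 without wild type 1. Without wild type 2 they were −0.61, 0.53 and 0.61. Lama4, a chain of vascular basement membranes, was at 83.9 and 78.9 CPM in Shh null and 75.5 and 84.6 CPM in wild type. Lamc1, the common gamma chain, was at 101 and 102 CPM in Shh null and 87.2 and 110.2 CPM in wild type. Both had overlapping groups and log2 fold changes of 0.03 and 0.05, which turned below 0 without wild type 1 (−0.055 and −0.12) and, for Lama4, without Shh null 1 (−0.018). Lama3 and Lamb3, chains of epithelial laminin, stayed under 5 CPM and were not called. Lama3 had 4.56 and 3.57 CPM in Shh null and 2.39 and 2.09 CPM in wild type, and Lamb3 had 3.69 and 4.80 CPM in Shh null and 2.49 and 2.64 CPM in wild type. The heparan sulfate proteoglycans of the basement membrane were not called either, with Agrn, agrin, at 146 and 128 CPM in Shh null and 106 and 106 CPM in wild type (adjusted p = 0.0969). Hspg2, perlecan, was at 65.3 and 54.2 CPM in Shh null and 42.4 and 49.5 CPM in wild type (adjusted p = 0.165).

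Epithelium and endothelium both make basement membrane, so their markers were read beside these genes. The 11 surface ectoderm markers summed to 432 and 446 CPM in Shh null, against 393 and 383 CPM in wild type, and 0 of the 11 were called by limma. The 11 endothelial markers summed to 289 and 292 CPM in Shh null, against 245 and 311 CPM in wild type, and 0 of the 11 were called by limma. At an unadjusted p under 0.05 limma had 2 of the ectodermal and 0 of the endothelial markers, and no marker of either list was at 0 in any library. Over all tested genes 2.48% were called and 18.5% had an unadjusted p under 0.05 in limma. Of the 8 limb mesenchyme markers 4 rose (Prrx1, Prrx2, Twist1 and Lhx9), 1 fell (Fgf10) and 3 were not called, and the list summed to 2229 and 2142 CPM in Shh null, against 1579 and 1703 CPM in wild type. Without Shh null 1 the adjusted p of Prrx1, Prrx2, Twist1, Lhx9 and Fgf10 was 0.296, 0.215, 0.0538, 0.114 and 0.162, and in the fit that left out Shh null 2 it was 0.107, 0.122, 0.0749, 0.0588 and 0.081. The Prrx1 call also ended without wild type 1 (0.107), in the replicate block fit (0.0661) and with no filter (0.087), and the Prrx2 call with no filter (0.0514). Muscle precursor markers, read since Lama2 is a chain of muscle basement membrane, summed to 31.0 and 27.0 CPM in Shh null, against 27.4 and 28.6 CPM in wild type. Macrophage markers summed to 24.5 and 23.1 CPM in Shh null, against 14.2 and 12.2 CPM in wild type, with 1 of 7 tested higher (Cx3cr1) and 5 at an unadjusted p under 0.05. The Cx3cr1 call ended without Shh null 1 (adjusted p = 0.313), without Shh null 2 (0.0707), with quantile normalization (0.075) and with no filter (0.0782). Of the neural crest and glia markers 1 of 2 tested was higher (Erbb3, lost without Shh null 1, without Shh null 2 and with no filter, at adjusted p = 0.221, 0.103 and 0.0533), and Foxd3 was at 0 in a library. The part of these cell types in the matrix differences was not tested.

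**Figure D4:**
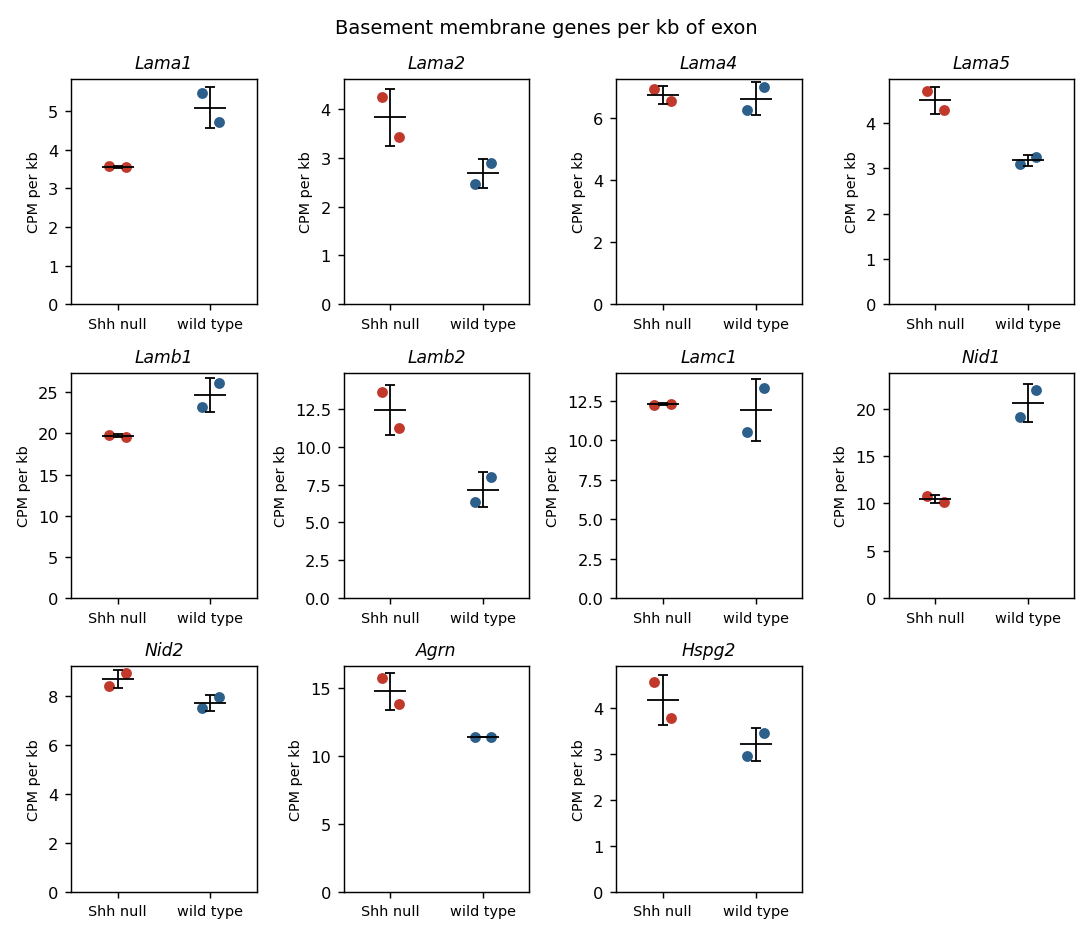
CPM per kb of exon of the 11 basement membrane genes in each library (points), with the mean and SD of each genotype (n = 2, black); every axis starts at 0. Lamb2 lies higher and Nid1 lower in both Shh null libraries, while Lama4 and Lamc1 overlap between the genotypes.

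Promoter sequence from RefSeq (GRCm38.p6, the build of mm10) was read for the called members Nid1, Lamb2, Tgfbi and Thbs2. The called members Has2 and Sparcl1 had no entry there, so Nid1 was the only gene read that fell. Each window runs from 250 bases before to 50 bases after the start, on the strand of the gene. It shows what lies at the start of the gene. Capitals mark the core of the GLI binding motif (CCACCCA or, on the other strand, TGGGTGG), since GLI proteins carry the hedgehog response, and the GC box (GGGCGG or CCGCCC); the 2 motifs share no letters in these windows.
Nid1 (chr13:13437352-13437651, plus strand): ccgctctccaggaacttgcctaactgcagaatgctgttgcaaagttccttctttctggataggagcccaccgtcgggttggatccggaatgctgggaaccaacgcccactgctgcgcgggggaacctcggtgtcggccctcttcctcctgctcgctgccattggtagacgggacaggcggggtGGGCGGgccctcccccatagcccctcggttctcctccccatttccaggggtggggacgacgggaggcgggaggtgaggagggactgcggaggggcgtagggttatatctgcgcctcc
Lamb2 (chr9:108479612-108479911, plus strand): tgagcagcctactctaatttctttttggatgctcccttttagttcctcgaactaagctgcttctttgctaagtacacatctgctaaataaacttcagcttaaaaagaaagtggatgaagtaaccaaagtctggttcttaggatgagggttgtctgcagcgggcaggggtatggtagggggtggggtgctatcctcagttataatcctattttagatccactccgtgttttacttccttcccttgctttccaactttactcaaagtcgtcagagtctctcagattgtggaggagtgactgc
Tgfbi (chr13:56609336-56609635, plus strand): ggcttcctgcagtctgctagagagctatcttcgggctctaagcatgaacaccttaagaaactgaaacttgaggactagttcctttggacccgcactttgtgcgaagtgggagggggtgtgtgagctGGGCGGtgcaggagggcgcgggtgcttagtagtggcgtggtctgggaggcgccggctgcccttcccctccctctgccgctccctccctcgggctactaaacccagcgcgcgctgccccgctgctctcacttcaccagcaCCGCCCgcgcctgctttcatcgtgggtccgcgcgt
Thbs2 (chr17:14694213-14694512, minus strand): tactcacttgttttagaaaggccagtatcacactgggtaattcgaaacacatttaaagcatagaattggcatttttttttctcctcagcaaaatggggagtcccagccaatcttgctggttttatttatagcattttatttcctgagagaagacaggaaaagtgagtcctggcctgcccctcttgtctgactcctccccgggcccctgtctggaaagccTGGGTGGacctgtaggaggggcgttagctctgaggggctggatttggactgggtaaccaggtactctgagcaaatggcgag
The GLI core stood once in the Thbs2 window, and the GC box stood once in Nid1 and at 2 places in Tgfbi; neither was in the Lamb2 window. The core was in 9.3% and the GC box in 35.7% of all 32851 promoter windows. Of 37 windows for 28 of the 47 members, 8 held the core and 23 the GC box. The full motif GACCACCCA was in 0.253% of all windows and in 0 of the 37. A match describes the letters only.

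Microfibril and elastic fibre genes give tissues recoil and store growth factors. Of 15 tested members 0 were called by limma or edgeR and 1 (Mfap4) was called by DESeq2. In limma 5 (33.3%) had an unadjusted p under 0.05, beside 18.5% of all tested genes. The groups did not overlap in 11 members, 10 higher (66.7%) and 1 lower (6.67%). Over all tested genes 25.1% lay apart in the higher and 25.0% in the lower direction. Fibrillins form the microfibril core: Fbn1 had 118 and 96.8 CPM in Shh null and 63.4 and 89.0 CPM in wild type (log2 fold change 0.50, adjusted p = 0.136). Fbn2 had 326 and 266 CPM in Shh null and 227 and 272 CPM in wild type. Mfap4, a microfibril-associated protein, was at 87.4 and 75.2 CPM in Shh null and 57.6 and 61.4 CPM in wild type (log2 fold change 0.44, adjusted p = 0.0732). Of the lysyl oxidases, which cross-link elastin and collagen, Lox was at 5.76 and 6.54 CPM in Shh null and 2.67 and 4.24 CPM in wild type (adjusted p = 0.112). Loxl1 was at 3.19 and 3.11 CPM in Shh null and 1.54 and 1.60 CPM in wild type (2.01-fold, adjusted p = 0.0815). The log2 fold changes of Fbn1, Lox and Mfap4 were 0.26, 0.45 and 0.40 without wild type 1. Without wild type 2 they were 0.74, 0.96 and 0.49. Ltbp1, which stores latent TGF-beta, was the 1 member of this role that lay lower in both Shh null libraries (34.6 and 27.9 CPM, against 40.8 and 37.6 CPM in wild type, adjusted p = 0.229); its relatives Ltbp3 and Ltbp4 were under 6 CPM. Exons of Fbn1 share 20.1% of their bases with Gm9913 on the opposite strand. The microfibril-associated Mfap2 was at 41.5 and 31.9 CPM in Shh null and 27.4 and 31.3 CPM in wild type and the fibulin Fbln2 at 106 and 79.3 CPM in Shh null and 78.7 and 75.2 CPM in wild type, with adjusted p of 0.303 and 0.354. The lysyl oxidase Loxl2 averaged 95.9 ± 5.91 CPM in Shh null and 85.3 ± 8.18 CPM in wild type (SD, n = 2 each; adjusted p = 0.442). Eln, elastin itself, was at 1.58 and 1.28 CPM in Shh null and 1.02 and 1.05 CPM in wild type. Fbln1, Fbln5 and Emilin1 had log2 fold changes of 0.03, −0.07 and 0.11, and those of Fbln5 and Emilin1 turned without Shh null 1 (0.11 and −0.020).

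Small leucine-rich proteoglycans bind collagen fibrils, and 0 of the 4 tested were called by limma (1, Bgn, had an unadjusted p under 0.05). Bgn, biglycan, had 37.6 and 25.4 CPM in Shh null and 16.7 and 18.8 CPM in wild type, 1.77-fold higher (log2 fold change 0.77 ± 0.18 SE, adjusted p = 0.0556). The gene passed in edgeR (adjusted p = 0.0498), in DESeq2 (0.00312) and in limma with a replicate block (0.016). In limma it did not pass with quantile normalization (0.0888), median-ratio scaling (0.0591), a pseudocount of 0.25 (0.0555) or no filter (0.115). Its log2 fold change was 0.50 without Shh null 1, 1.04 without Shh null 2, 0.69 without wild type 1 and 0.85 without wild type 2. Bgn lies on the X chromosome, as does Gpc3, and the Xist values above differ between the genotypes. The part of sex in the Bgn difference, as in those of the other members, was not tested. Ogn, osteoglycin, averaged 4.38 ± 0.335 CPM in Shh null and 5.26 ± 1.05 CPM in wild type (SD, n = 2 each), and its groups overlapped.

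Cell surface proteoglycans included the members with the highest levels per kb of exon. Gpc3, glypican 3, known in mouse embryos to bind hedgehog proteins and limit their signalling, had 1472 and 1381 CPM in Shh null, against 1140.0 and 1429 CPM in wild type (log2 fold change 0.16, adjusted p = 0.569, and −0.0032 on the log2 scale without wild type 1). Sdc1, syndecan 1, was at 351 and 333 CPM in Shh null and 390.1 and 329 CPM in wild type. Gpc6, glypican 6, was at 56.2 and 49.1 CPM in Shh null and 51.9 and 55.6 CPM in wild type. All of these groups overlapped, and 0 of the 3 were called by limma, edgeR or DESeq2 or had an unadjusted p under 0.05 in limma. Per kb of exon, 4 members had the highest mean levels in both genotypes. Gpc3 was at 530.4 CPM per kb in Shh null and 478 in wild type, and Sdc1 at 89.8 CPM per kb in Shh null and 94.4 in wild type. Vcan was at 37.4 CPM per kb in Shh null and 52.9 in wild type, and Mfap4 at 42.3 CPM per kb in Shh null and 30.9 in wild type. Eln was the lowest, at 0.176 CPM per kb in Shh null and 0.128 in wild type. Vcan ranked below Mfap4 in Shh null and above it in wild type.

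Tnc, Postn, Dcn and Lum differed widely within a genotype. These 4 of the 47 members (8.51%) had libraries of 1 genotype over 2-fold apart, as did 3.21% of all tested genes. Tnc, tenascin C, an anti-adhesive glycoprotein, had 9.66 and 23.8 CPM in Shh null and 7.09 and 35.6 CPM in wild type, a 5.02-fold range within wild type. Postn, periostin, had 6.68 and 33.5 CPM in Shh null and 11.7 and 12.5 CPM in wild type, a 5.02-fold range within Shh null. Both were lower in replicate 1 than in replicate 2 of each genotype. The log2 fold change of Tnc was −0.08 with all libraries, −1.17 without wild type 1 (adjusted p = 0.000276) and 1.01 without wild type 2 (0.00624). That of Postn was 0.32 with all libraries, 1.40 without Shh null 1 (0.0251) and −0.76 without Shh null 2. Dcn, decorin, had 1.66 and 4.57 CPM in Shh null and 2.42 and 1.71 CPM in wild type. Lum, lumican, had 2.74 and 6.08 CPM in Shh null and 4.49 and 4.90 CPM in wild type. They are neighbours on chromosome 10, 47.0 kb apart, and both were highest in Shh null 2. The genotypes overlapped in each of these genes, and the fitted direction of each turned when 1 library was left out.

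**Figure D5:**
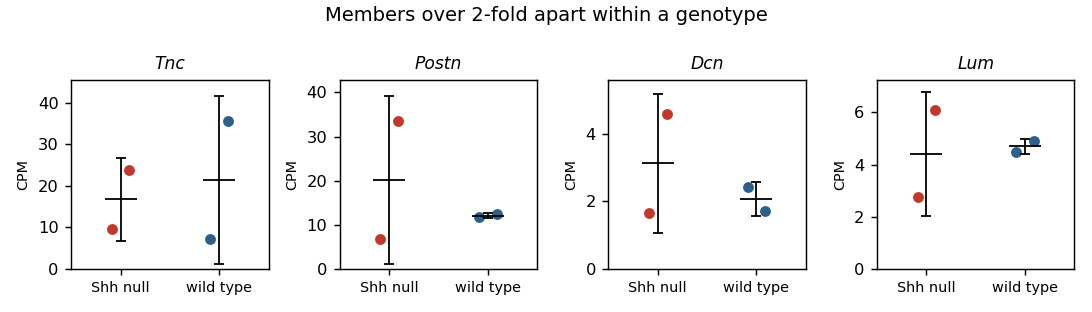
CPM of Tnc, Postn, Dcn and Lum in each library (points), with the mean and SD of each genotype (n = 2, black); every axis starts at 0. The libraries of a genotype lie up to 5.02-fold apart, and the genotypes overlap in each gene.

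Other matrix genes were read from 3 lists: 78 further glycoproteins and proteoglycans, 22 matrix receptors, and 47 proteases and inhibitors. Of the 58 tested glycoproteins and proteoglycans 6 rose, 3 fell and 49 were not called, with a median log2 fold change of 0.27. The share called was 15.5%, beside 2.48% of all tested genes, whose median log2 fold change was −0.0005. Frem1, which builds the Fraser complex that holds ectoderm to mesenchyme, fell 3.51-fold, to 50.2 and 47.4 CPM in Shh null, against 188 and 155 CPM in wild type (log2 fold change −1.79 ± 0.11 SE, adjusted p = 5.12e-05). Its partner Frem2 rose, to 88.4 and 88.8 CPM in Shh null, against 55.0 and 62.8 CPM in wild type (log2 fold change 0.58, adjusted p = 0.0213). Fras1 was at 67.5 and 57.8 CPM in Shh null and 42.7 and 51.8 CPM in wild type and was not called (adjusted p = 0.141). Rspo3, a secreted enhancer of WNT signalling, fell 2.44-fold (12.4 and 11.5 CPM in Shh null, 29.4 and 28.9 CPM in wild type, adjusted p = 0.00141). Smoc1, a calcium-binding relative of SPARC, fell 2.72-fold (6.47 and 4.35 CPM in Shh null and 12.9 and 16.5 CPM in wild type, adjusted p = 0.0111). The others that rose were Edil3, which binds integrins, at 12.4 ± 0.125 CPM in Shh null and 6.37 ± 0.573 CPM in wild type, and the lysyl oxidase Loxl3 at 22.7 ± 1.41 CPM in Shh null and 12.6 ± 0.647 CPM in wild type. Emilin2 was at 47.0 ± 1.69 CPM in Shh null and 28.0 ± 3.48 CPM in wild type, the guidance ligand Slit2 at 65.7 ± 3.48 CPM in Shh null and 40.9 ± 6.66 CPM in wild type, and syndecan 2, Sdc2, at 89.8 ± 2.35 CPM in Shh null and 61.1 ± 1.67 CPM in wild type (SD, n = 2 each). Without Shh null 1 the adjusted p of Frem1 was 0.00477, of Rspo3 0.0288 and of Smoc1 0.0412, while that of Frem2, Slit2, Emilin2, Sdc2, Loxl3 and Edil3 lay above the threshold, at 0.216, 0.28, 0.212, 0.172, 0.212 and 0.212. Without Shh null 2 it was 0.00529 for Frem1, 0.026 for Rspo3 and 0.0815 for Smoc1, and 0.114, 0.106, 0.0927, 0.114, 0.0815 and 0.106 for the same 6 genes.

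Integrins carry most contacts between cells and this matrix, and 1 of the 20 tested receptors rose, 2 fell and 17 were not called, with a median log2 fold change of −0.01. That was 15.0% called, beside 2.48% of all tested genes. Itga8, the alpha chain that pairs with Itgb1 and binds nephronectin, fell to 14.1 and 16.6 CPM in Shh null, against 36.5 and 32.3 CPM in wild type (2.24-fold, adjusted p = 0.00301, and 0.069 without Shh null 1). Npnt, nephronectin, was at 12.9 and 10.8 CPM in Shh null and 6.35 and 11.0 CPM in wild type (adjusted p = 0.32). Itgav, an alpha chain of receptors for fibronectin and other RGD proteins, fell to 88.0 and 88.8 CPM in Shh null, against 123 and 122 CPM in wild type (log2 fold change −0.47, adjusted p = 0.0328; 0.237 without Shh null 1, 0.116 without Shh null 2, 0.0526 without wild type 1 and 0.0799 with quantile normalization). Itga4, another fibronectin receptor chain, rose to 57.5 and 59.9 CPM in Shh null, against 36.2 and 30.9 CPM in wild type (1.75-fold, adjusted p = 0.00864; 0.112 without Shh null 1 and 0.0837 without Shh null 2). The shared beta chain Itgb1 was at 358 and 357 CPM in Shh null and 357 and 406 CPM in wild type, and dystroglycan, Dag1, a laminin receptor, at 108 and 107 CPM in Shh null and 111 and 104 CPM in wild type.

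The authors' deposited table was read beside these calls. In it a positive log2 fold change means higher in Shh null, since 99.3% of its signs match those of the mean values. At a false discovery rate under 0.05 the authors' deposited table calls 10 members higher and 4 lower, against 2.89% and 2.11% of the genes tested here (5.0% in either direction). That table includes all 6 members called by limma in the same direction, and adds Bgn, Fn1, Lama2, Lama5, Loxl1 and Mfap4 as higher and Lama1 and Vcan as lower.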

How the data were processed

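Total RNA of forelimbs was taken up in TRIzol and sequenced on Illumina instruments, 2 libraries per genotype, per the labels' protocols. Per the submitters' processing notes, edgeR 3.4.2, HTSeq 0.5.4p5, TopHat2 2.0.9 and SAMtools were used with build mm10. The sources used here do not give their roles, the annotation or whether counting used strand, so reads of overlapping genes may be shared. The authors deposited 1 signal value per gene and library; 100% of values were whole multiples of the column's smallest positive value (tolerance 0.001), and TMM factors recomputed from the recovered reads gave the same scale. The authors' deposited table holds their log2 fold changes, p-values and false discovery rates.

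Log2(CPM + 1) of genes with at least 1 CPM in at least 2 libraries was fitted with limma 3.58.1 under R 4.3.3 with an intensity trend, on genotype alone, and Benjamini-Hochberg adjustment over 13224 genes. Alternatives were edgeR 4.0.16 (quasi-likelihood) and DESeq2 1.42.0 on the recovered read counts, a pseudocount of 0.25, no filter, quantile and median-ratio scaling, a replicate block and leaving out each library. Whole-table fits were also run on simulated counts, drawn independently for each library with an assumed dispersion. That run does not test the calls made here. Exon lengths and coordinates are from GENCODE M21 (50 of 50 symbols matched) and promoters from RefSeq. The members, roles and lists were chosen with earlier results of these data known. Named by rule are all members, Shh, and the called genes of each list and marker list; other genes set beside them (family members, receptors, abundant proteases) were chosen after their values were seen. Some genes of the lists are not reported here.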

Additional observations from a re-analysis of the deposited data

How the results depend on the processing

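With all libraries limma called 164 higher and 164 lower over all genes, 4 and 2 among the members, and 8 and 6 in the 3 lists. Without the filter on low values it called 79 higher and 91 lower over all genes, 2 and 2 among the members, and 5 and 4 in the 3 lists; DESeq2 called 253 higher and 273 lower over all genes, 9 and 4 among the members, and 12 and 6 in the 3 lists; edgeR called 169 higher and 160 lower over all genes, 5 and 2 among the members, and 8 and 6 in the 3 lists. Leaving out each library gave 15 to 386 higher and 41 to 416 lower over all genes, 1 to 13 and 1 to 4 among the members, and 0 to 15 and 3 to 7 in the lists (0 higher by limma without Shh null 1, where 14 were higher with an unadjusted p under 0.05). Without the filter the limma calls of Lamb2 and Tgfbi ended (adjusted p = 0.0511 and 0.0804). Of the lists, the calls of Slit2, Edil3, Htra1, Itgav and Adamtsl2 ended too (0.0571, 0.0624, 0.0582, 0.0533 and 0.0573). In that fit both the intensity trend and the adjustment run over 17712 genes, and their parts in these losses were not tested. The labels do not say that equal replicate numbers mark shared embryos, and the deviations of replicate 1 from its group mean correlated at r = −0.203 between the genotypes. With a replicate block limma called 220 higher and 176 lower over all genes, 5 and 2 among the members, and 10 and 6 in the 3 lists, and Bgn was added (adjusted p = 0.016). A crossed replicate block, added after the data were seen, called 641 higher and 745 lower over all genes, 15 and 6 among the members, and 23 and 6 in the 3 lists. With quantile normalization the log2 fold changes of Matn2, Gpc6 and Sdc1 turned to −0.057, 0.00041 and 0.067. Leaving out 1 library in turn gave log2 fold changes on both sides of 0 for 12 members, not called with all libraries: −0.020 to 0.25 for Emilin1, −0.25 to 0.11 for Fbln5, −0.61 to 0.32 for Lum, −0.20 to 0.87 for Dcn, −1.17 to 1.01 for Tnc, −0.76 to 1.40 for Postn, −0.48 to 0.054 for Ecm1, −0.055 to 0.11 for Lama4, −0.12 to 0.22 for Lamc1, −0.0032 to 0.32 for Gpc3, −0.13 to 0.063 for Gpc6 and −0.19 to 0.055 for Sdc1. In all, 13 of the 47 members turned under at least 1 alternative, with a log2 fold change of at most 0.34 in size with all libraries, and 34 did not. With 2 libraries per genotype the median SE was 0.14 on the log2 scale, which limits what can be called.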

Other observations

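Of the 42 tested matrix proteases and inhibitors 1 rose, 1 fell and 40 were not called, a share of 4.76% beside 2.48% of all tested genes. Htra1, a secreted serine protease that cleaves matrix proteins, rose 2.66-fold, to 5.47 and 5.99 CPM in Shh null, against 2.60 and 1.71 CPM in wild type (limma, adjusted p = 0.0192; 0.19 without Shh null 1 and 0.118 without Shh null 2). Adamtsl2, a secreted glycoprotein that binds fibrillin 1 and LTBP1, fell 3.20-fold, to 3.53 and 1.83 CPM in Shh null, against 9.76 and 7.38 CPM in wild type (adjusted p = 0.0163, and 0.0981 without Shh null 2). The abundant gelatinase Mmp2 was at 255 and 229 CPM in Shh null and 247 and 253 CPM in wild type, and its activator Mmp14 at 70.5 and 66.3 CPM in Shh null and 58.8 and 61.1 CPM in wild type, with neither called. Timp2, a metalloproteinase inhibitor, was at 65.4 and 58.0 CPM in Shh null and 40.6 and 45.7 CPM in wild type (adjusted p = 0.054).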
